A study of Arabidopsis thaliana with 48 samples.

Results

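GH3.3 (AT2G23170) and WES1 (AT4G27260, also known as GH3.5) are genes of the GH3 family of Arabidopsis thaliana, and both encode enzymes that join auxin to amino acids. They were chosen by name, through the gene annotation of the array's probe sets, and are read here across all 16 groups of the experiment. The choice was made with earlier results of these data known. Each gene has 1 named probe set, so that 2 of the 22746 probe sets other than controls are described. Both probe sets lay above the 40th percentile of every array and were among the 15777 that passed the filter on low signals.

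Auxin (indole-3-acetic acid) drives the elongation of the hypocotyl, the stem of the seedling. GH3 enzymes lower the pool of free auxin by conjugation: some conjugates can be cleaved again, while those with aspartate or glutamate lead towards degradation. Several GH3 genes are themselves switched on quickly by auxin, so their transcripts are commonly used as markers of auxin response. WES1 also acts on salicylic acid, and plants that overproduce it have short hypocotyls. Light stops the elongation that goes on in darkness, through phytochromes (red and far-red light), cryptochromes (blue light and UV-A) and the UV-B receptor UVR8.

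RNA was taken from etiolated Col-0 seedlings (stock N1092), mostly hypocotyls with cotyledons, and hybridised to 48 ATH1 arrays in 16 groups of 3. All seedlings had been sown on MS agar, stratified at 8 °C for 48 h, given 2 h of light to start germination and kept at 22 °C in darkness for 94 h. They then stayed dark or received unbroken white light, or light with its peak at 715 nm (far-red), 650 nm (red) or 453 nm (blue), each at an intensity of 10 µmol m-2 s-1. Other dishes got 1 min of red light at 50 µmol m-2 s-1 or 5 min of UV at 7 W m-2, followed by darkness. The UV pulse came through a filter with a cut-off at 327 nm (UV-A pulse) or at 307 nm (UV-A/B pulse). The descriptions of the UV-A/B arrays name that light, except for replicate 2 at 45 min. The early harvest came 45 min after the onset of light. The late harvest came after 4 h of continuous light or, in the pulse groups, after 4 h of darkness from the end of the pulse. No light treatment was combined with a mutant, so that the experiment holds no check of a targeted gene. Whether the 3 arrays of a group stem from separately grown seedlings is not said in the labels, so the p-values cover only the scatter of these arrays, technical or not. In tissue of mixed cell types, fewer cells of a type and less RNA per cell cannot be told apart.

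Of 3 arrays the labels leave a doubt. Leaving them out ended 4 of the 44 calls of GH3.3 and WES1 over all comparisons and added or turned none. The description of UV-A/B pulse 45 min replicate 2 says darkness, although its title gives the UV pulse. GH3.3 read 652 on that array, between 583 and 859 on the other 2 arrays of its group and above the highest dark array of that harvest, at 356. Darkness 4 h replicate 1 had green germination light where the other labels give red, and the title of far-red 45 min replicate 2 carries the number 1 as well. The labelled tissue could be checked with few markers. EXPA7, an expansin of root hairs, lay below the 40th percentile on every array, and EXPA18, another root hair expansin, read 9.2 to 51.6. RCA (rubisco activase) and PORB (a protochlorophyllide reductase), both listed as markers of cotyledon and etioplast, read 351 to 2184 and 305 to 1601. No marker of dry seed had a named probe set.

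In darkness both transcripts were well above the low end of the arrays at either harvest. The linear MAS5 signal of GH3.3 in the dark was 312, 260 and 356 at 45 min and 389, 329 and 394 at 4 h. That of WES1 was 1051, 1042 and 1380 at 45 min and 1144, 1185 and 1127 at 4 h. The dark arrays of the harvests overlapped for each gene. Between 45 min and 4 h of further darkness, the log2 change was 0.27 for GH3.3 (SE 0.23, 95% interval -0.20 to 0.74, adjusted p = 0.805 by limma) and 0.01 for WES1 (SE 0.14, interval -0.28 to 0.29, adjusted p = 0.996). In this comparison 0.0317% of all probe sets were called. A call here means a Benjamini-Hochberg adjusted p under 0.05 in limma over all tested probe sets, and changes are on the scale of log2 of signal plus 1.

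**Figure D1:**
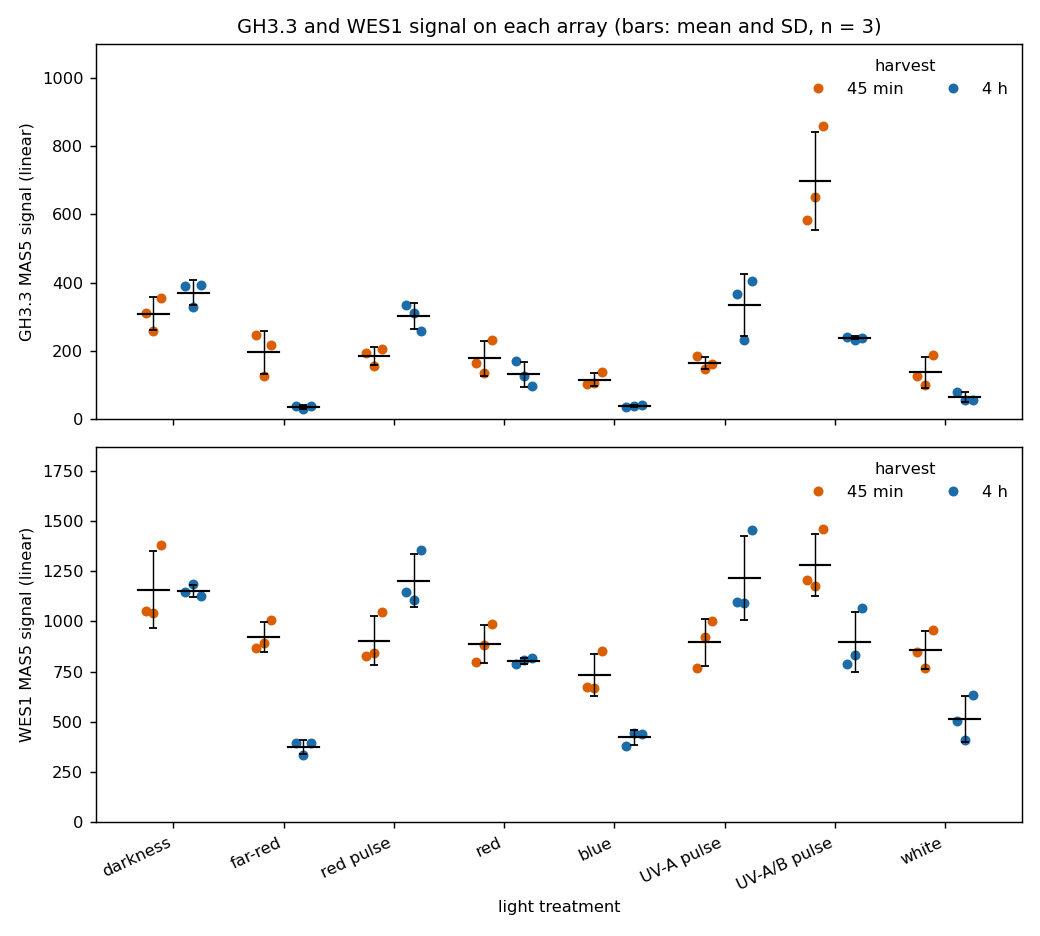
Linear MAS5 signal of GH3.3 (upper panel) and WES1 (lower panel) on each array, by light treatment and harvest; points are arrays, lines and bars the mean and SD of 3 arrays. GH3.3 reached 583 to 859 at 45 min after the UV-A/B pulse and 28.7 to 43 at 4 h of far-red or blue light, and the WES1 arrays of those 4 h groups lay between 338 and 445.

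Far-red light, which is read through phytochrome A, gave the lowest mean of either gene by 4 h. GH3.3 read 40.0, 28.7 and 37.5 on the far-red arrays of that harvest, a mean of 35.4 ± 5.94 (SD, n = 3) against 371 ± 36 in darkness. WES1 read 395, 338 and 395, a mean of 376 ± 33.1 against 1152 ± 29.9. All 3 far-red arrays lay below all 3 dark arrays for both genes, as they did for 24.1% of all probe sets. GH3.3 fell 10.3-fold (log2 change -3.36, SE 0.23, adjusted p = 5.57e-15) and WES1 fell 3.07-fold (-1.62, SE 0.14, adjusted p = 5.79e-12). Over all probe sets 15.4% were called lower, and from the most lowered GH3.3 stood 16th and WES1 202nd of 15777. At 45 min GH3.3 read 246, 126 and 217 and WES1 868, 890 and 1009. Again no far-red array reached the dark arrays, which held for 5.81% of all probe sets, but neither gene was called at a harvest where 0.482% were called lower. The changes there were -0.70 for GH3.3 (95% interval -1.17 to -0.23, adjusted p = 0.153) and -0.32 for WES1 (interval -0.61 to -0.03, adjusted p = 0.525). Without the 3 arrays of doubtful labels the early change of GH3.3 was -0.41 (adjusted p = 0.848), since replicate 2 is the array at 126.

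Blue light, read by cryptochromes, brought both genes down at both harvests. GH3.3 read 103, 106 and 138 at 45 min and 35.3, 37.3 and 43 at 4 h. WES1 read 673, 670 and 853 at 45 min and 382, 445 and 442 at 4 h. Every blue array lay below every dark array of its harvest for both genes, as for 7.09% of all probe sets at 45 min and 22.4% at 4 h. GH3.3 fell 2.66-fold at 45 min (-1.41, SE 0.23, adjusted p = 3.51e-05) and 9.41-fold at 4 h (-3.23, SE 0.23, adjusted p = 2.70e-14). WES1 fell 1.58-fold at 45 min (-0.66, SE 0.14, adjusted p = 0.00218), its 1 call at that harvest, and 2.73-fold at 4 h (-1.45, SE 0.14, adjusted p = 1.44e-10). The share of all probe sets called lower was 1.81% at 45 min and 13.6% at 4 h. GH3.3 was 48th from the most lowered at 45 min and 17th at 4 h. At 4 h of far-red or blue light the GH3.3 signal lay between percentiles 42 and 51.3 of its array, close to the low end, where the size of a fold is less certain than its direction. With a pseudocount of 16 in place of 1 the 4 h changes were -2.91 in far-red and -2.82 in blue light.

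White light acted on GH3.3 within 45 min and on both genes by 4 h. GH3.3 read 126, 100 and 188 at 45 min, below the dark arrays, a position that 6.36% of all probe sets shared. At 4 h it read 80.6, 55.4 and 56.2, also below them, as 19.4% of all probe sets did. It fell 2.29-fold at 45 min (-1.20, SE 0.23, adjusted p = 0.000542) and 5.78-fold at 4 h (-2.53, SE 0.23, adjusted p = 3.13e-11). WES1 read 846, 767 and 958 at 45 min and 502, 409 and 633 at 4 h, below all dark arrays at either harvest. Its early change was not called (-0.43, 95% interval -0.72 to -0.14, adjusted p = 0.113), and at 4 h it fell 2.27-fold (-1.18, SE 0.14, adjusted p = 2.42e-08). In all, 1.27% of probe sets were called lower at 45 min and 10.2% at 4 h.

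Continuous red light lowered both genes by 4 h, by less than far-red or blue light did. GH3.3 read 165, 136 and 234 at 45 min and 170, 128 and 97.2 at 4 h. WES1 read 798, 882 and 986 at 45 min and 787, 808 and 818 at 4 h. The red arrays lay below the dark ones for both genes at each harvest, which held for 8.07% of all probe sets at 45 min and 17.6% at 4 h. At 4 h GH3.3 fell 2.87-fold (-1.52, SE 0.23, adjusted p = 3.90e-06) and WES1 fell 1.43-fold (-0.52, SE 0.14, adjusted p = 0.00891), with 7.62% of all probe sets called lower. At 45 min GH3.3 was called narrowly (-0.82, SE 0.23, adjusted p = 0.0464) and WES1 was not (-0.37, 95% interval -0.66 to -0.08, adjusted p = 0.263), with 0.596% called lower. The early call of GH3.3 was lost without darkness 45 min replicate 1 (adjusted p = 0.116) or 3 (0.258), without red 45 min replicate 1 (0.186) or 2 (0.324), with median scaling (0.0766) and in a fit of these 2 groups alone (0.116). Replicate numbers paired the arrays of this comparison, and with them as a block WES1 was called too (adjusted p = 0.0103). No share of all probe sets is given with the block.

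The red pulse of 1 min was followed by darkness, and by 4 h both genes read about as in the dark control. GH3.3 read 194, 155 and 206 at 45 min, below every dark array as 6.26% of all probe sets were, and 335, 312 and 260 at 4 h, where it overlapped the dark arrays. WES1 read 827, 841 and 1046 at 45 min and 1144, 1109 and 1354 at 4 h, overlapping the dark arrays both times. Neither gene was called at 45 min (GH3.3 -0.74, adjusted p = 0.0985; WES1 -0.35, adjusted p = 0.321), when 0.532% of all probe sets were called lower. Here the replicate numbers paired the arrays, and with them as a block both were called lower (adjusted p = 0.0160 for GH3.3 and 0.0194 for WES1). The share of 0.532% is from the fit without the block. At 4 h the changes were -0.30 for GH3.3 (95% interval -0.77 to 0.17, adjusted p = 0.676) and 0.06 for WES1 (interval -0.23 to 0.35, adjusted p = 0.932), with 0.919% called lower.

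After the UV-A pulse the course was similar in its values. GH3.3 read 184, 149 and 162 at 45 min, below the dark arrays as 8.82% of all probe sets were. At 4 h it read 368, 233 and 405 and overlapped them. WES1 read 768, 920 and 1000 at 45 min, also below the dark arrays, and 1096, 1093 and 1456 at 4 h, again overlapping. GH3.3 fell 1.86-fold at 45 min (-0.90, SE 0.23, adjusted p = 0.0101), where 2% of all probe sets were called lower; the call was lost without darkness 45 min replicate 3 (adjusted p = 0.0719) or UV-A pulse 45 min replicate 2 (0.0592). WES1 was not called (-0.37, 95% interval -0.66 to -0.08, adjusted p = 0.154), but was with the replicate number, which paired these arrays, as a block (adjusted p = 0.00622). The share of 2% was taken without the block. At 4 h the changes were -0.18 for GH3.3 (interval -0.65 to 0.29, adjusted p = 0.777) and 0.06 for WES1 (interval -0.23 to 0.35, adjusted p = 0.891), against 2.16% called lower overall.

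The UV-A/B pulse, whose filter lets through shorter wavelengths, was the 1 treatment after which GH3.3 was called higher. At 45 min GH3.3 read 583, 652 and 859, a mean of 698 ± 144 (SD, n = 3) against 309 ± 48.2 in darkness. All 3 arrays lay above every dark array, as for 8.49% of all probe sets. GH3.3 rose 2.24-fold (1.16, SE 0.23, adjusted p = 0.000353), where 5.29% of all probe sets were called higher. Without the arrays of doubtful labels, among them the UV-A/B array described as dark, the change was 1.20 (adjusted p = 0.000807). WES1 read 1208, 1176 and 1458, overlapping its dark arrays, and its change was 0.15 (95% interval -0.14 to 0.44, adjusted p = 0.636). By 4 h GH3.3 read 242, 234 and 238, now below all dark arrays, and WES1 read 789, 834 and 1069, below them as well, a position shared by 18.8% of all probe sets. GH3.3 was called lower (-0.63, SE 0.23, adjusted p = 0.0434) and WES1 was not (-0.37, SE 0.14, adjusted p = 0.0564), with 11.4% of all probe sets called lower. That call of GH3.3 was lost without the arrays of doubtful labels (adjusted p = 0.0906) and without either darkness 4 h replicate 1 or 3 or any 1 of the UV-A/B arrays (0.0803 to 0.124). Replicate numbers paired the arrays at this harvest, and with them as a block WES1 was called lower (adjusted p = 0.00181). The share of 11.4% does not come from that fit.

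**Figure D2:**
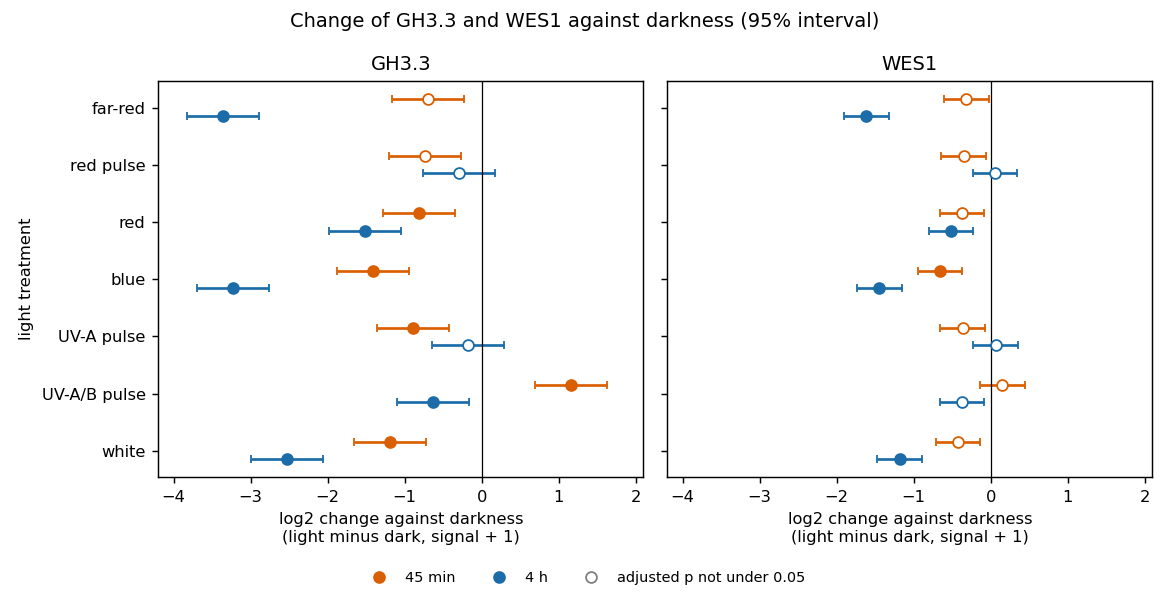
Log2 change of GH3.3 (left) and WES1 (right) against the dark group of the same harvest, with 95% intervals from limma; filled points have an adjusted p under 0.05. GH3.3 was called in 10 of the 14 comparisons, 9 times lower and once higher, and WES1 in 5, each time lower; the comparisons of a harvest share its 3 dark arrays.

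Without the arrays of doubtful labels, which include a dark one of the 4 h harvest, GH3.3 changed at 4 h by -3.32 in far-red, -3.20 in blue, -2.49 in white and -1.48 in red light. WES1 changed by -1.62, -1.45, -1.19 and -0.52 in the same order, and all 8 calls held.

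Taking all light arrays of a harvest together, GH3.3 lay below every dark array on 18 of 21 light arrays at 45 min and above every dark array on 3, those of the UV-A/B pulse. WES1 lay below every dark array on 17 of 21 at 45 min. At 4 h either gene lay below every dark array on 18 of 21. How many of all probe sets reach such counts against 3 dark arrays was not examined, so the counts only describe these arrays. The mean of the light arrays was lower by 1.68 on the log2 scale for GH3.3 at 4 h (log2 change -1.68, exact permutation p = 0.0341, two-sided, adjusted over 6 tests 0.102). For WES1 at 4 h the difference was -0.72 (exact permutation p = 0.0810, adjusted 0.122). At 45 min the differences were -0.66 for GH3.3 (exact permutation p = 0.190, adjusted 0.228) and -0.33 for WES1 (p = 0.0539, adjusted 0.108). None of these pooled differences passed after adjustment. Their p-values include the spread between treatments, which moved GH3.3 in opposite directions at 45 min (1.16 after the UV-A/B pulse, -1.41 in blue light). They therefore do not measure the effect of any single light.

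Among the continuous lights, given at 1 intensity, the order of both genes at 4 h ran from red through white and blue down to far-red light. GH3.3 averaged 132 ± 36.3 in red, 64.1 ± 14.3 in white, 38.5 ± 4.00 in blue and 35.4 ± 5.94 in far-red light (SD, n = 3 each). WES1 averaged 804 ± 15.5, 515 ± 113, 423 ± 35.4 and 376 ± 33.1 in the same order. Red light was higher than far-red for GH3.3 (log2 change 1.84, adjusted p = 1.51e-07) and WES1 (1.10, adjusted p = 3.23e-07), with 7.33% of all probe sets called in either direction. Blue was lower than red for GH3.3 (-1.71, adjusted p = 2.00e-06) and WES1 (-0.93, adjusted p = 2.18e-05), with 4.15% called. White was lower than red as well (GH3.3 -1.01, adjusted p = 0.0208; WES1 -0.67, adjusted p = 0.0115), with 0.602% called. Against far-red light, white was higher for GH3.3 (0.83, adjusted p = 0.0352, 2.88% called) and not called for WES1 (0.43, 95% interval 0.14 to 0.72, adjusted p = 0.110). These calls of white light were lost in part of the alternatives. Leaving out 1 array gave adjusted p up to 0.263 for white against far-red light (GH3.3), and up to 0.269 (GH3.3) and 0.227 (WES1) for white against red.

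Blue against far-red light was called for neither gene at 4 h, with a change of 0.13 for GH3.3 (95% interval -0.34 to 0.60) and 0.17 for WES1 (interval -0.12 to 0.46), and 0.228% of all probe sets called. White against blue light was not called either (GH3.3 0.70, interval 0.23 to 1.17; WES1 0.26, interval -0.03 to 0.55), with 0.456% called. At 45 min neither gene was called between any pair of continuous lights or between red light and the red pulse. There the share of all probe sets called was 0.127% for red against far-red, 0.437% for blue against far-red, 0.247% for white against far-red, 0.513% for blue against red, 0.038% for white against red and 0.00634% for white against blue. Between red light and the red pulse it was 0% by limma, with 578 probe sets at an unadjusted p under 0.05.

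The duration of red light was compared at 4 h, when continuous red light met a single pulse. GH3.3 was lower under continuous light (132 ± 36.3 against 302 ± 38.6, log2 change -1.22, SE 0.23, adjusted p = 0.000448). WES1 was lower too (804 ± 15.5 against 1202 ± 132, -0.57, SE 0.14, adjusted p = 0.0108), with 4.09% of all probe sets called. The WES1 call was lost without red pulse 4 h replicate 3 (adjusted p = 0.0973). Intensities differed between the pulse and the continuous light.

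The UV filters differed for GH3.3 at 45 min by the widest margin of the comparisons between lights that were run. GH3.3 was 4.17-fold higher after the UV-A/B pulse than after the UV-A pulse (698 ± 144 against 165 ± 17.9, log2 change 2.06, SE 0.23, adjusted p = 1.90e-07), with 2.16% of all probe sets called. Without the UV-A/B array described as dark and the other arrays of doubtful labels the call held (adjusted p = 1.28e-06). WES1 was called higher with a smaller change (0.52, SE 0.14, adjusted p = 0.0439). At 4 h the sign was turned: WES1 was called lower after the UV-A/B pulse (-0.44, SE 0.14, adjusted p = 0.0487) and GH3.3 was not called (-0.45, 95% interval -0.92 to 0.01, adjusted p = 0.270), with 8.74% called. Both WES1 calls were close to the threshold. They were lost with median scaling (adjusted p = 0.0665 at 45 min and 0.0878 at 4 h) and on leaving out single arrays (up to 0.268 and 0.309).

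Set over time, the 7 treatments took different courses from 45 min to 4 h. GH3.3 went on down between 45 min and 4 h in far-red (-2.40, adjusted p = 9.20e-11, 25.6% of all probe sets called), blue (-1.55, adjusted p = 1.86e-06, 22.9% called) and white light (-1.07, adjusted p = 0.000681, 18.5% called). WES1 did so as well, by -1.29 in far-red (adjusted p = 2.59e-09), -0.78 in blue (5.38e-05) and -0.75 in white light (0.000128). After the UV-A/B pulse GH3.3 fell from its early peak by 1.53 on the log2 scale (adjusted p = 3.42e-06, 19.9% called), and WES1 fell by 0.52 (adjusted p = 0.00757). The reverse course followed the UV-A pulse, where GH3.3 rose by 0.99 (adjusted p = 0.00305, 9.55% called) and WES1 by 0.43 (adjusted p = 0.0471). That WES1 rise was lost without UV-A pulse 45 min replicate 1 (adjusted p = 0.221) or 2 (0.0853) or UV-A pulse 4 h replicate 3 (0.259), and the WES1 fall after UV-A/B without UV-A/B pulse 4 h replicate 1 (0.0583) or UV-A/B pulse 45 min replicate 3 (0.0650).

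After the red pulse the changes between harvests were 0.71 for GH3.3 (adjusted p = 0.0768) and 0.41 for WES1 (adjusted p = 0.105), neither called, with 4.35% of all probe sets called. Replicate numbers paired these arrays, and with them as a block both were called higher at 4 h (adjusted p = 0.0134 and 0.00226). All shares of probe sets in this paragraph were taken without the block. In continuous red light neither gene was called between harvests (GH3.3 -0.43, 95% interval -0.90 to 0.03; WES1 -0.14, interval -0.43 to 0.15), with 12% called. Since darkness itself was not called between harvests for either gene, the change of the light effect was tested as such. It was larger at 4 h than at 45 min for GH3.3 and WES1 in far-red (15% of all probe sets called), blue (11.4%) and white light (8.73%). It also differed for GH3.3 after the UV-A/B pulse (10% called), where WES1 was not called (-0.52, adjusted p = 0.0969). Replicate numbers paired the UV-A/B arrays with the dark arrays at either harvest, and with them as a block that difference of WES1 was called too (adjusted p = 0.0041). The sizes stand among the results set out for a closer look. For the red pulse (1.72% called), red light (6.8%) and the UV-A pulse (4.17%) neither gene was called without the block.

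In its spread over the experiment GH3.3 was the more variable of the pair. Its signal ran from 28.7 to 859 over the 48 arrays, and the highest group mean was 19.7 times the lowest. WES1 ran from 338 to 1458, with a ratio of 3.41 between its highest and lowest group mean, and stayed between percentiles 91.2 and 98.9 of every array. Ordered by mean, GH3.3 was highest at 45 min after the UV-A/B pulse, followed by darkness at 4 h, the UV-A pulse at 4 h, darkness at 45 min and the red pulse at 4 h. Next came the UV-A/B pulse at 4 h, then at 45 min far-red, the red pulse, red light, the UV-A pulse and white light, then red light at 4 h and blue light at 45 min. White, blue and far-red light at 4 h closed the order. Neighbouring groups overlapped in 11 of 15 steps. The breaks lay below the first group, between the red pulse and the UV-A/B pulse at 4 h, between blue light at 45 min and white light at 4 h, and between white and blue light at 4 h.

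WES1 had the same first group and the same last 3, with 13 of 15 neighbours overlapping. Its breaks lay between darkness at 4 h and far-red light at 45 min, and between blue light at 45 min and white light at 4 h. Above the first break stood the UV-A/B pulse at 45 min, the UV-A pulse and the red pulse at 4 h, and darkness at either harvest. Replicates of a group differed by a coefficient of variation of 1.85% to 32.7% for GH3.3 (median 16.7%) and 1.93% to 21.9% for WES1 (median 11.7%).

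**Figure D3:**
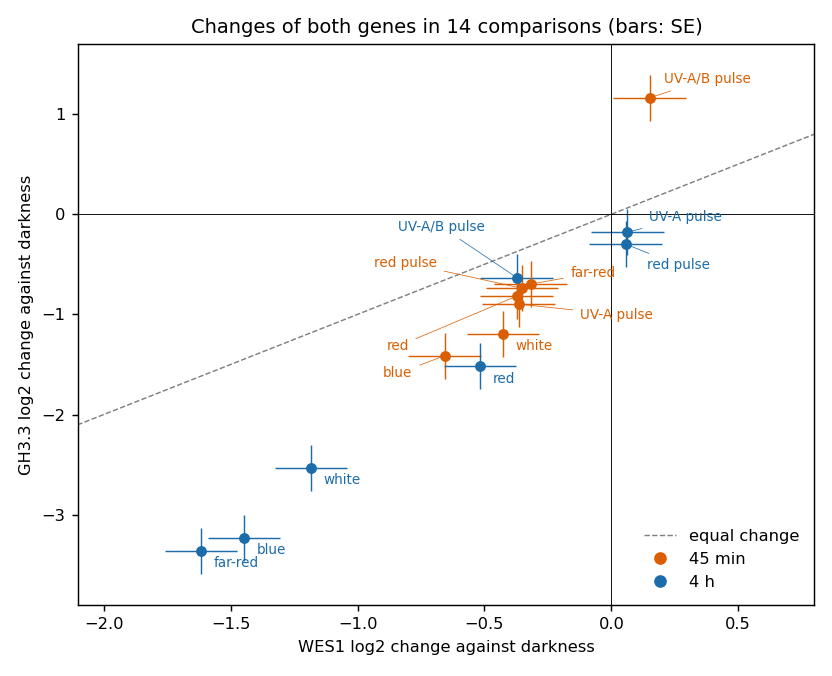
Log2 change of GH3.3 (vertical axis) against that of WES1 (horizontal axis) in the 14 comparisons with darkness; bars are standard errors and the dashed line marks equal change. At 4 h far-red light stands at -3.36 and -1.62 and blue light at -3.23 and -1.45, and at 45 min the UV-A/B pulse stands at 1.16 and 0.15; the comparisons of a harvest share dark arrays.

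GH3.3 changed more than WES1 where intervals could part them. The change of GH3.3 was larger in size in all 14 comparisons with darkness, which share dark arrays within a harvest, and the 95% intervals of the genes lay apart in 6. Those 6 were far-red, red, blue and white light at 4 h and the UV-A/B pulse and white light at 45 min. Within an array, the log2 ratio of GH3.3 to WES1 was lower than in darkness by 1.74 in far-red (log2 -1.74) and 1.79 in blue light (-1.79) at 4 h, and higher by 1.01 at 45 min after the UV-A/B pulse. The arrays of light and darkness did not overlap in this ratio in 10 of 14 comparisons. How often the ratio of other probe sets parts such arrays was not examined, so this count is a description. Over all light arrays at 4 h the ratio was lower by 0.96 (-0.96, exact permutation p = 0.0247, adjusted over 6 tests 0.102). At 45 min the difference was -0.32 (exact permutation p = 0.412), and both p-values include the spread between treatments. Such a ratio shows unequal change of the signals and does not compare the amounts of the transcripts.

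Over the 16 group means of log2 signal the genes were each other's closest match. Their Pearson correlation was 0.970, the highest of 8698 probe sets of 1 gene for GH3.3 and likewise for WES1. The pair was chosen with earlier results of these data known, and its points share arrays and light treatments. The value and its rank are therefore a description, and cross-hybridisation between the probe sets was not tested. For GH3.3 the next were HAT2 (0.936), a homeodomain-leucine zipper gene, CML23 (0.935), a calmodulin-like gene, AT5G25170 (0.925), HHP2 (0.919), AT2G05790 (0.916), EXLA1 (0.909), an expansin-like gene, and AT3G07510 (0.905). For WES1 they were AT1G02660 (0.946), AT5G49100 (0.943), AT5G25170 (0.942), AT2G05790 (0.929), PORB (0.929), AT3G60260 (0.927) and AT3G12710 (0.919). The UV-A/B peak was less marked in them: the change at 45 min after that pulse was 0.13 for HAT2, 0.34 for CML23, 0.45 for HHP2 and 0.50 for EXLA1, beside 1.16 for GH3.3, and these differences were not tested.

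Of the GH3 family list of 20 genes, 12 had a named probe set and 6 passed the filter: GH3.3, WES1, GH3.17, AT1G48690, AT5G13350 and AT5G13380. GH3.17, which acts on auxin with glutamate, was not called in any of 14 comparisons without the replicate block. Its mean signal ran from 264 to 475 between groups, and its log2 change from -0.50 after the red pulse at 45 min to 0.37 in far-red light at 4 h (adjusted p = 0.0641). With the replicate number as a block GH3.17 was called lower at 45 min in 3 comparisons whose arrays it paired, after the red pulse (-0.50, adjusted p = 0.0102) and the UV-A pulse (-0.43, 0.0191) and in blue light (-0.45, 0.0159). AT1G48690 was called lower at 4 h in far-red light (29.1 ± 7.62 against 65.4 ± 5.73, log2 change -1.17, adjusted p = 0.00346) and after the UV-A/B pulse (28.8 ± 20.1, -1.37, adjusted p = 0.00106). Of all probe sets, 15.4% and 11.4% were called lower there. With the block AT1G48690 was also called lower at 45 min after the UV-A/B pulse, where the numbers paired the arrays (-0.90, adjusted p = 0.00579). Over these 4 genes other than GH3.3 and WES1 the block moved the calls against darkness from 2 to 9 lower and from 0 to 1 higher. Of the calls with the block, 1 lower and 1 higher of GH3.17 and 3 lower of AT1G48690 lay in comparisons that the numbers did not pair. The share of all probe sets called with the block is not given here, so the gain is not a result about these genes. AT5G13350 and AT5G13380 were called neither with nor without the block, and read between 4.9 and 42.2 and between 9.8 and 29.1. GH3.1, GH3.9 and the loci AT1G23160, AT5G51470, AT1G48660 and AT1G48670 stayed at or below 34.6 on every array and were not tested. At 4 h the 6 tested genes had a median change of -0.40 under far-red and -0.41 under blue light, against -0.03 and -0.02 over all probe sets. These medians include GH3.3 and WES1 and are not shared by the rest of the list. In far-red light AT1G48690 changed by -1.17, but GH3.17 by 0.37, AT5G13350 by 0.37 and AT5G13380 by 0.49. In blue light the changes of these 4 genes were -0.78, 0.24, 0.13 and -0.05 in the same order. Except for those of AT1G48690, the calls of the family without the block at 4 h (11 lower in 42 tests) were those of GH3.3 and WES1. The share of all probe sets called lower at 4 h ran from 0.919% (red pulse) to 15.4% (far-red light). Cross-hybridisation between family members was not tested, since probe sequences were not used here.

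**Figure D4:**
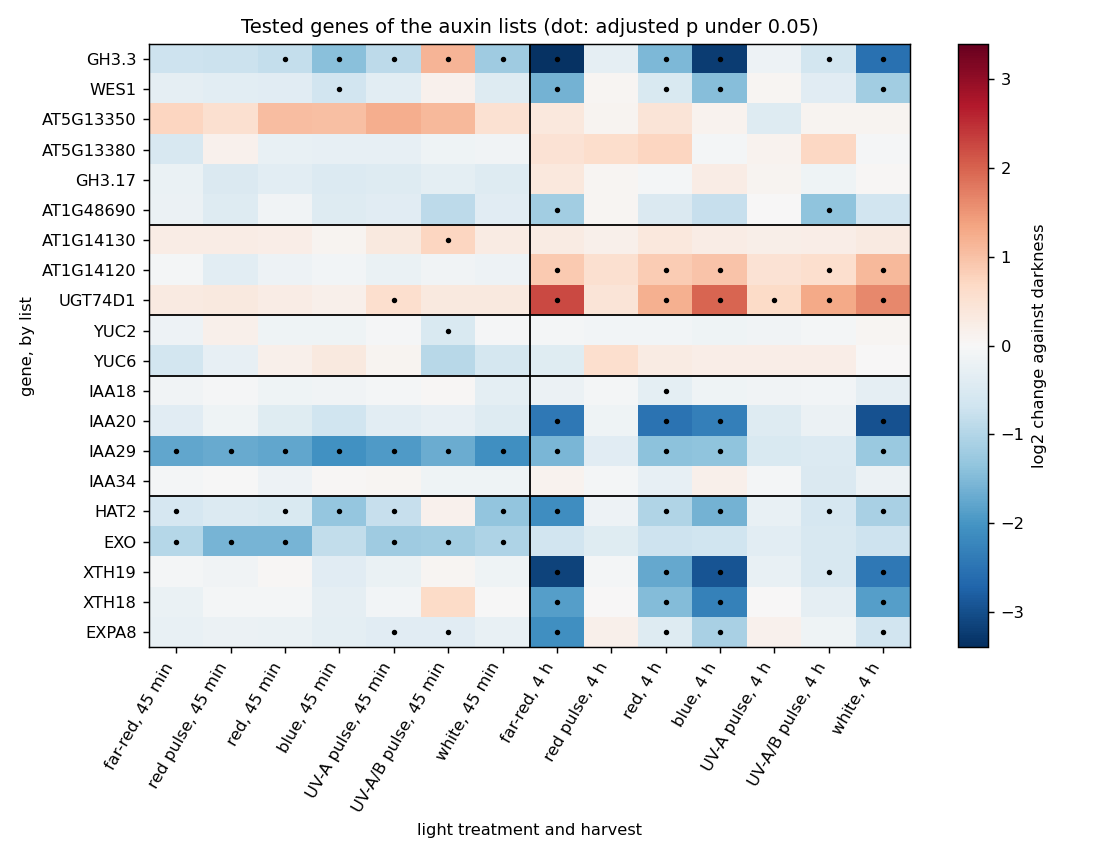
Log2 change against darkness (colour) of the tested genes of the auxin lists in 14 comparisons. Horizontal lines part the lists, and dots mark an adjusted p under 0.05. From the top the lists are the GH3 family, auxin amide hydrolysis with oxidation and glucosylation, auxin synthesis, Aux/IAA repressors and growth genes. GH3.3 fell by 3.36 and UGT74D1 rose by 2.25 in far-red light at 4 h, and IAA29 was lower in 11 of the 14 comparisons. The share of all probe sets called lower in those 11 ran from 0.482% to 15.4%.

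The list of auxin amide hydrolysis, oxidation and glucosylation was covered by 4 of 13 genes, 3 of them tested. UGT74D1, a glucosyltransferase that acts on auxin, moved opposite to GH3.3 at 4 h of continuous light. Its signal rose from 74.8 ± 10.2 in darkness to 360 ± 44.5 in far-red light (log2 change 2.25, adjusted p = 5.57e-14), where 13.6% of all probe sets were called higher. It rose as well in blue (1.98), white (1.63) and red light (1.21) and after the UV-A/B (1.29) and UV-A pulses (0.65) at 4 h, and after the UV-A pulse at 45 min (0.57). Over the 16 group means it correlated at -0.81 with GH3.3 and -0.88 with WES1. AT1G14120, listed by locus, was called higher at 4 h in far-red (0.88), red (0.87), blue (0.98) and white light (1.11) and after the UV-A/B pulse (0.56). AT1G14130, likewise listed by locus, was called higher at 45 min after the UV-A/B pulse (0.73, adjusted p = 0.000385). No call on this list was lower, in 42 tests over both harvests. Of all probe sets, 12.8% were called higher at 4 h in blue, 11% in white and 8.49% in red light, 10.9% after the UV-A/B and 2.55% after the UV-A pulse, and 3.7% after the UV-A pulse at 45 min. After the UV-A/B pulse at 45 min it was 5.29%.

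For auxin synthesis 4 of 17 listed genes had a named probe set and 2 were tested. YUC2, a flavin monooxygenase of the last step of auxin synthesis, was called lower at 45 min after the UV-A/B pulse (-0.52, adjusted p = 0.00481, with 3.75% of all probe sets called lower), where GH3.3 was higher, and in no other of the 14 comparisons. YUC6, of the same family, was never called.

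Of 29 Aux/IAA genes, which encode repressors of auxin response, 7 had a named probe set and 4 were tested. IAA29 was called lower in all 7 treatments at 45 min, by -2.07 in white light to -1.70 after the UV-A/B pulse, and at 4 h in far-red (-1.54), red (-1.40), blue (-1.36) and white light (-1.26). Of all probe sets, 0.482% (far-red light) to 3.75% (UV-A/B pulse) were called lower at 45 min. At 4 h it was 15.4% in far-red, 7.62% in red, 13.6% in blue and 10.2% in white light. IAA29 thus fell after the UV-A/B pulse (adjusted p = 1.50e-09) where GH3.3 rose, and its correlation with GH3.3 over groups was 0.37. IAA20 was called lower at 4 h in white (-2.97), red (-2.50), far-red (-2.44) and blue light (-2.31), from low signals that passed the 40th percentile on 18 of 48 arrays. IAA18 was called lower in red light at 4 h (-0.34, adjusted p = 0.0334), and IAA34 was never called.

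Growth genes linked to shade and to PIF transcription factors were covered by 5 of 13 members, all tested. HAT2, the closest match of GH3.3 after WES1, was called lower at 4 h in far-red (-2.12), blue (-1.59), white (-1.11) and red light (-1.01) and after the UV-A/B pulse (-0.57). It was called lower already at 45 min in white (-1.34), blue (-1.33), far-red (-0.57) and red light (-0.51) and after the UV-A pulse (-0.79). XTH19 and XTH18, which rebuild xyloglucan in the cell wall, fell at 4 h in far-red (-3.16 and -1.88), blue (-2.93 and -2.28), white (-2.42 and -1.87) and red light (-1.75 and -1.46), and XTH19 also after the UV-A/B pulse (-0.56); neither was called at 45 min. EXPA8, a wall-loosening expansin, fell at 4 h in far-red (-2.08), blue (-1.10), white (-0.64) and red light (-0.45), and at 45 min after the UV-A (-0.40) and UV-A/B pulses (-0.38). EXO followed another course, lower in 6 treatments at 45 min and in none at 4 h. Of all probe sets, 0.482% (far-red light) to 3.75% (UV-A/B pulse) were called lower at 45 min. At 4 h the share was 15.4% in far-red, 13.6% in blue, 10.2% in white and 7.62% in red light, and 11.4% after the UV-A/B pulse. At 4 h the median over the 5 genes stood at -2.08 under far-red and -1.59 under blue light, against -0.03 and -0.02 over all probe sets, and after the red pulse it was -0.06.

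Auxin receptors, auxin response factors, auxin transporters and salicylic acid genes had no named probe set among 6, 15, 19 and 9 listed genes. The 2 markers of cotyledon and etioplast moved apart from each other. RCA was called higher at 4 h in all 7 treatments (1.22 to 2.09), the red pulse included, where 1.81% of all probe sets were. That share was the lowest of the 7, and the highest was 13.6% in far-red light. PORB was called lower at 4 h in far-red (-1.55), blue (-1.13) and white light (-1.01), where 15.4%, 13.6% and 10.2% of all probe sets were. The signals of EXPA18, the tested root marker, were not called in any comparison with darkness. The part of these markers in the changes of GH3.3 and WES1 was not tested.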

How the data were processed

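Signals of 48 ATH1 arrays were analysed as deposited by the authors: linear intensity values from MAS5 (version not given), according to the submitters' processing notes, with a trimmed mean (2% at each end) of 100.007 to 100.008 per array. No further scaling was applied. Values of 0 occur (567) and detection calls were not used. Arrays have no read depth, and their number limits the precision. Groups and numbers came from the labels.

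Values were taken as log2(signal + 1), which understates changes of low genes. A probe set was tested if it exceeded the 40th percentile (24.3 to 30.1) on 3 or more arrays, which left 15777 of 22746 without the 64 controls. limma 3.58.1 in R 4.3.3 fitted 16 group means over all arrays (lmFit, eBayes with intensity trend, 32 residual degrees of freedom), with Benjamini-Hochberg adjustment within each of 45 contrasts and calls at 0.05. The fit was tested on simulated data. Pooled light arrays were compared by exact permutation (2024 assignments, smallest p 0.000494). Symbols came from the platform annotation and the RefSeq genes of TAIR10.1, which named 13513 probe sets with 1 gene.

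Genes named were both members, the measured GH3 family, the 4 most changed called members of each other list (all of short lists), and the 8 closest probe sets of 1 gene by correlation. Members and lists were chosen with earlier results of these data known. Same-numbered arrays were taken as paired where all 3 correlations of their deviations exceeded 0.1, which held for 6 of 14 comparisons with darkness (all correlations -0.001 to 0.421), 9 of 16 between lights and 5 of 8 between harvests. Alternatives were a pseudocount of 16, quantile and median scaling, no filter, no trend, contrast groups alone, the replicate block and leaving out arrays. Figures were drawn with matplotlib.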

Additional observations from a re-analysis of the deposited data

Results flagged for a closer look

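The light effect on GH3.3 differed between harvests in 4 treatments, by a test of the difference itself in limma (4 h effect minus 45 min effect, log2 scale). It was -2.66 in far-red (SE 0.33, adjusted p = 7.86e-08), -1.82 in blue (adjusted p = 0.00011), -1.80 after the UV-A/B pulse (adjusted p = 0.000175) and -1.33 in white light (adjusted p = 0.00552). After the UV-A/B pulse the sign turned, from 1.16 at 45 min to -0.63 at 4 h. The 4 h call itself was narrow (adjusted p = 0.0434 by limma). It was lost without the arrays of doubtful labels and on leaving out single arrays (up to 0.124). In the other 3 treatments the difference passed for neither gene without a replicate block.

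For WES1 the same test without a replicate block passed in 3 treatments, with -1.30 in far-red (SE 0.20, adjusted p = 7.32e-06), -0.79 in blue (adjusted p = 0.00646) and -0.76 in white light (adjusted p = 0.0118). The last of these was lost without white 4 h replicate 2 (adjusted p = 0.0675). With the replicate number as a block it passed for WES1 after the UV-A/B pulse too (-0.52, adjusted p = 0.0041), where the numbers paired light and dark arrays at both harvests, and after the UV-A pulse (0.43, adjusted p = 0.0349), where they did so at 45 min. No share of all probe sets is given with the block. Groups of 3 arrays are too small for a test of single outlying arrays.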

How the results depend on the processing

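Of the 15 calls of GH3.3 and WES1 against darkness, 12 kept direction and call under every alternative run: GH3.3 in blue and white light and after the UV-A/B pulse at 45 min, and both genes in far-red, red, blue and white light at 4 h, with WES1 in blue light at 45 min. Between lights 6 of 12 calls did so, between harvests 8 of 10, and of the differences of effects 6 of 7. The calls that were lost had adjusted p of 0.00757 to 0.0487, and 3 arrays a group limit the precision. The cause of each change below was not tested.

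Values are log2 changes. A pseudocount of 16 ended the call of GH3.3 in white against far-red light at 4 h (0.63, adjusted p = 0.107), and quantile normalization that of WES1 in UV-A/B against UV-A at 4 h (-0.39, 0.0568). Median scaling ended those of GH3.3 in red light at 45 min (-0.80) and in white against far-red light at 4 h (0.83), and of WES1 in UV-A/B against UV-A at 45 min (0.56) and 4 h (-0.44) and between harvests after UV-A (0.44). It turned the uncalled WES1 difference of red light and red pulse at 45 min (0.041). Without a filter or without the intensity trend, GH3.3 in red light at 45 min (-0.82) and after UV-A/B at 4 h (-0.63), and WES1 in UV-A/B against UV-A (0.52 and -0.44) and between harvests after UV-A (0.43), had adjusted p of 0.0528 to 0.0702. Fits of the contrast's groups alone lost GH3.3 in red light at 45 min (-0.82), white against red at 4 h for GH3.3 (-1.01) and WES1 (-0.67), and WES1 in UV-A/B against UV-A (0.52 and -0.44) and between harvests after UV-A (0.43) and UV-A/B (-0.52). They gained GH3.3 between harvests after the red pulse (0.71). Without the arrays of doubtful labels the calls of GH3.3 after UV-A/B at 4 h (-0.60) and of WES1 in UV-A/B against UV-A (0.57 and -0.44) and between harvests after UV-A (0.43) were lost.

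The replicate block gained 13 calls and lost none. The shares of all probe sets called were taken without the block, so these gains have no share beside them. Besides those given beside the paired results (GH3.3 red pulse -0.74 and WES1 red pulse -0.35, red -0.37 and UV-A -0.37 at 45 min, WES1 UV-A/B -0.37 at 4 h, red pulse between harvests 0.71 and 0.41), it gained GH3.3 (-0.70, adjusted p = 0.0292) and WES1 (-0.32, 0.0489) in far-red and WES1 in white light (-0.43, 0.00171) at 45 min, WES1 in white against far-red light (0.43, 0.00195), and its differences of effects after UV-A (0.43, 0.0349) and UV-A/B (-0.52, 0.0041). For UV-A/B the numbers paired light and dark arrays at both harvests, and for UV-A at 45 min. The far-red and white light comparisons missed the rule of 0.1 for all 3 correlations. Their lowest was 0.043 for far-red and -0.001 for white light at 45 min, and 0.088 for white against far-red light at 4 h. For the rest of the GH3 family list, besides the move from 2 to 9 lower and 0 to 1 higher calls with the block, a pseudocount of 16 gave 4 lower and quantile normalization 1 higher.

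Leaving out 1 array ended calls of GH3.3 in red light (-1.03 to -0.64) and after UV-A at 45 min (-1.02 to -0.79), after UV-A/B at 4 h (-0.72 to -0.59), in white against red (-1.21 to -0.81) and white against far-red light at 4 h (0.66 to 0.92), and the pooled 4 h differences of GH3.3 (-1.76 to -1.63) and of the ratio (-1.07 to -0.90) at an unadjusted 0.05. For WES1 it ended UV-A/B against UV-A at 45 min (0.41 to 0.60) and 4 h (-0.57 to -0.30), white against red (-0.83 to -0.51) and red against red pulse at 4 h (-0.63 to -0.49), the changes between harvests after UV-A (0.30 to 0.52) and UV-A/B (-0.65 to -0.42) and the difference of effects in white light (-0.92 to -0.60). It gained for WES1 white against far-red light (0.27 to 0.59), UV-A/B at 4 h (-0.51 to -0.29) and its difference of effects (-0.66 to -0.43). Uncalled values near 0 changed sign: at 45 min red against far-red light (GH3.3 -0.41 to 0.069, WES1 -0.13 to 0.019), red against red pulse (-0.29 to 0.10 and -0.10 to 0.087), white against blue (GH3.3 -0.031 to 0.42) and white against red (WES1 -0.14 to 0.024); at 4 h blue against far-red (GH3.3 -0.012 to 0.22), UV-A (GH3.3 -0.33 to 0.062, WES1 -0.074 to 0.13) and red pulse (WES1 -0.032 to 0.11); and WES1 in darkness between harvests (-0.065 to 0.14).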
